A study of Hordeum vulgare with 10 samples.

Results

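The small RNAs described here are 53 predicted miRNAs of the barley seed, out of 81 predicted and 142 miRNAs in the count table. They were taken by number from the hvu-new names, leaving out by number 28 others. Plant miRNAs are cut by a Dicer-like enzyme from a hairpin precursor as a duplex of a mature strand and a star strand. The mature strand is loaded into an Argonaute protein and guides the cleavage or translational repression of mRNAs that pair with it. Prediction programs call a miRNA from reads that stack at 1 place of the genome and a surrounding sequence that folds into a hairpin, so a predicted miRNA is a candidate until other evidence is added. In dry seeds, stored small RNAs remain from seed maturation.

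RNA was extracted from embryos with scutella, taken from dry grains of the barley cultivar Damazy, with 3 libraries per group. Hv seeds and Lv seeds were stored from 1972 to 2018 and germinated at 86.7% and 2%, and Rc seeds were grown in the field shortly before sampling from the highly viable seeds. The stored seeds were 1 lot kept in 2 flasks, and each library was made from a pool of dry seeds of its flask or harvest. In 2018 the Lv seeds held more moisture than the Hv seeds, which the study puts down to a probable slight leak of a flask. Flask, moisture and harvest therefore cannot be told apart from viability and storage, and p-values measure only the spread between such pools. All Lv libraries and Hv replicate 3 were sequenced in run 2, Hv replicates 1 and 2 and Rc replicates 2 and 3 in run 1, and the run of the Rc replicate 1 column is not known. Total counts per library were 7159 to 19542 (Rc), 3966 to 11209 (Lv) and 4179 to 14618 (Hv). The 53 predicted miRNAs held 8616 of these counts, which was 9.74% of all counts and 12.8% of the counts of predicted miRNAs.

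Among the 53, the study's list of predicted miRNAs matched to known families names hvu-new69 under miR396 and hvu-new71 under miR171. The list gives both matches with a probability short of certainty, and a family member here means such a match. That list names fewer miRNAs than the study's text counts, so further assignments may exist. In Arabidopsis thaliana, miR396 targets growth-regulating factor genes and miR171 targets GRAS-domain transcription factor genes. Their sequences are shown first, from the 5′ end with T for U, each followed by a member related to the same family in sequence, hvu-new36 through its star strand and a 5p sequence. Capitals mark bases 2 to 8, the seed.
hvu-new69: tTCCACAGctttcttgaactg
hvu-new40: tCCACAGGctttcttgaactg
hvu-new71: tTGAGCCGtgccaatatctct
hvu-new36: tATTGGCTcggctcactcagg

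The hvu-new69 and hvu-new40 sequences are both 21 nt long and share the last 14 bases. With 1 base left out of each they are identical over the other 20 of 21 bases, so the sequences differ by a shift of the 5′ part by 1 base. Aligned without a gap and counted from 1 at the 5′ end of hvu-new40, this shift reads as C2T, A4C, C5A, A6C and G7A. The hvu-new71 sequence was identical over 18 bases to a known 3p miR171 sequence of the study's target table, shifted by 3 bases. The mature hvu-new36 sequence differed from a known 5p miR171 sequence by A2G, G11A and G21A over 21 bases, and the star listed for it differed from the known 3p miR171 sequence by C12T. Neither hvu-new36 nor hvu-new40 is named in the list of matched families. On IBSC_v2, hvu-new40 lies on the minus strand at chr2H:747501037-747501057 and chr2H:747694919-747694939, and hvu-new36 on the minus strand at chr1H:389190024-389190044.

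The hairpins from which hvu-new69 and hvu-new71 were predicted carried both strands of the duplex. Capitals mark the mature and the star strand.
hvu-new69: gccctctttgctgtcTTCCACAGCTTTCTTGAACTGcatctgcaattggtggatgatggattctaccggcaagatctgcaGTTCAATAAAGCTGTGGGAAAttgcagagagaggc
hvu-new71: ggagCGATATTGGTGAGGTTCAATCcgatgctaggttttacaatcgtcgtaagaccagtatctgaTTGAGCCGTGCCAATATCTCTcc
The hvu-new69 hairpin is that of chr7H:49824065-49824085, on the minus strand of the IBSC_v2 assembly, and holds the mature strand on its 5p arm. A second locus of hvu-new69 lies at chr6H:564937891-564937911 on the plus strand. The hvu-new71 hairpin belongs to chr7H:562880617-562880637, minus strand, with the mature strand on the 3p arm. Refolded with RNAfold, the hairpins had minimum free energies of -63.6 and -51.9 kcal/mol. No annotation of that assembly was used here, so the gene context of this and every other locus is not given.

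Another 2 of the 53, hvu-new44 and hvu-new46, carry the seed of hvu-new45, which the study assigned to miR166, the family that targets class III HD-ZIP genes in A. thaliana. A further member, hvu-new62, shares 12 bases with hvu-new80, assigned to miR159. The list of matched families does not name hvu-new62, and the shared stretch does not give it a family or targets. Families outside the sequences compared here were not searched, and a closer relative of hvu-new62 may be among them. These sequences are shown because they belong to 3 of the 5 most abundant of the 53.
hvu-new44: tCGGACCAggcttcaatccct
hvu-new46: tCGGACCAggcttcattccct
hvu-new45: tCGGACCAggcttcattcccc
hvu-new62: tGGACTGAagggagctccctc
hvu-new80: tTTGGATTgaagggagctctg
From hvu-new45 to hvu-new46 the change was C21T, the last base, and from hvu-new45 to hvu-new44 the changes were T16A and C21T. Over the 19 bases in which it aligns with hvu-new80, hvu-new62 had 3 differences, C5T, C18T and C19G, given from hvu-new62 to hvu-new80. Each of the 3 members had 1 locus, hvu-new44 at chr5H:513807919-513807939 on the minus strand, hvu-new46 at chr6H:539379330-539379350 on the plus strand and hvu-new62 at chr4H:126960329-126960349 on the plus strand. The hvu-new44 hairpin of 113 nt and the hvu-new62 hairpin of 192 nt are shown, with the mature strand in capitals and, for hvu-new44, also the star.
hvu-new44: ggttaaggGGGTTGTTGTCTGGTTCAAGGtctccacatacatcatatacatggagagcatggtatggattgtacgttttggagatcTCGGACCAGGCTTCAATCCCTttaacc
hvu-new62: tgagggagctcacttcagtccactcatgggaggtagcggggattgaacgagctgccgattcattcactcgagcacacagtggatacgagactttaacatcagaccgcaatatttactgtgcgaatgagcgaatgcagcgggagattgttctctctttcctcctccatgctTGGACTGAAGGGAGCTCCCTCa

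Only 1 other seed was shared within the 53. It joined hvu-new77, hvu-new78 and hvu-new79, which are not in the list of matched families.
hvu-new77: tTGTCTAGaaatgaatgtattt
hvu-new78: tTGTCTAGatatgaatgttc
hvu-new79: tTGTCTAGatatgaatgttt
From hvu-new79, hvu-new78 differed by T20C and hvu-new77 by T10A and T19A within the 20 bases of hvu-new79. The 3 were listed on 4 chromosomes, hvu-new77 on 4H, hvu-new78 on 5H and hvu-new79 on 1H and 2H.

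In length, 28 of the 53 (52.8%) were 21 nt, 18 (34%) were 20 nt and 7 (13.2%) were 22 nt. The 21 nt class held 73.9% of their counts, against 20.2% in the 20 nt class and 5.88% in the 22 nt class. A 5′ U, the base favoured by AGO1 in A. thaliana, is written T here and began 29 of the 53 sequences (54.7%), 19 of the 28 of 21 nt but only 6 of the 18 of 20 nt. Of the 28 other predicted miRNAs of the table, 4 (14.3%) were 20 nt long and 21 (75%) began with T. The differences between both sets in length and in the 5′ base were not tested. GC content had a median of 52.4%, from 22.7% in hvu-new77 to 72.7% in hvu-new57.

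**Figure D1:**
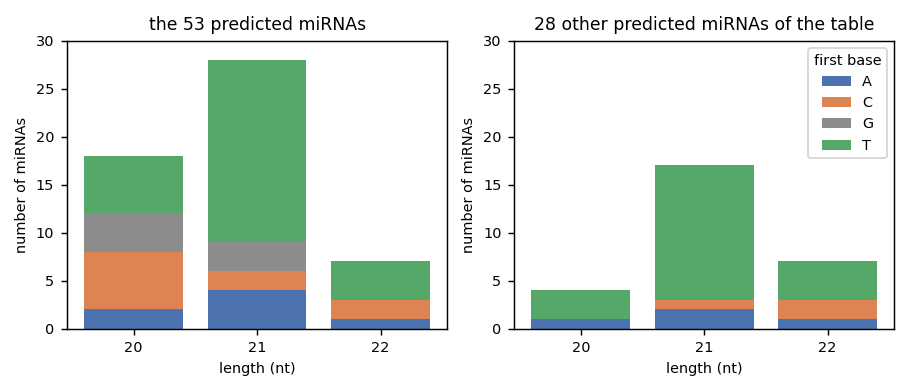
Number of predicted miRNAs (y axis) of each length in nt (x axis), with the colours giving the first base. Among the 53, T begins 19 of 28 sequences of 21 nt and 6 of 18 of 20 nt. The 28 other predicted miRNAs are shown beside them.

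The study's hairpin table lists 66 loci for the 53, with 16 on 5H, 13 on 2H, 12 on 6H, 6 on 1H, 5 each on 3H, 4H and 7H, and 4 on sequence with no chromosome. For 42 of them 1 locus was listed, for 9 there were 2 and for 2 there were 3, while 18 matched the genome at more places than the table lists loci. Hairpins had a median length of 101 nt, from 65 to 213 nt, and the mature sequence lay on the 5p arm at 36 loci and on the 3p arm at 25. At the other 5 loci the listed hairpin did not contain the whole mature sequence, and no arm was given. A star sequence, the read evidence for the opposite strand of the duplex, was listed for 15 of the 53 (28.3%) and for 13 of the 28 other predicted miRNAs (46.4%). None of the 7 members of 22 nt and 2 of the 18 of 20 nt had one, against 13 of the 28 of 21 nt. The median minimum free energy per 100 nt of hairpin was -53.9 kcal/mol at the 17 loci with a star and -42.2 kcal/mol at the 49 without, and both ranges overlapped widely.

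Several of the 53 were not independent of each other in sequence. Among all predicted miRNAs, 14 pairs that include at least 1 of the 53 shared 12 or more bases in a row, and 16 of the 53 were in such a pair. The clearest case was the hvu-new4 hairpin of chr1H:139155519-139155539, minus strand. It holds the mature hvu-new4 sequence and, except for the last base of each, the mature sequences of hvu-new19, hvu-new25, hvu-new29 and hvu-new30.
hvu-new29: gCGGAACGgctcttgctggtt
hvu-new19: cGGGGTGTggactgttgtca
hvu-new30: gGTGTGGActgttgtcggcg
hvu-new25: gACTGTTGtcggccgcgtca
hvu-new4: aCTGTTGTcggccgcgtcggt
In the hairpin, of 101 nt, capitals mark the stretches that these 5 sequences cover.
hvu-new4: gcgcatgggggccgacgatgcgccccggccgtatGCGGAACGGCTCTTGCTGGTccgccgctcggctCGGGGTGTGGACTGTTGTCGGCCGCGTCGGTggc
Counted from 1 at the 5′ end of the hairpin, hvu-new29 lay at positions 35 to 55, hvu-new19 at 68 to 87, hvu-new30 at 71 to 90, hvu-new25 at 77 to 96 and hvu-new4 at 78 to 98. The last-base differences, from the miRNA to the hairpin, were T21C in hvu-new29, A20G in hvu-new19 and in hvu-new25 and G20C in hvu-new30. Each of these 4 was listed at loci of its own and not at this hairpin.

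**Figure D2:**
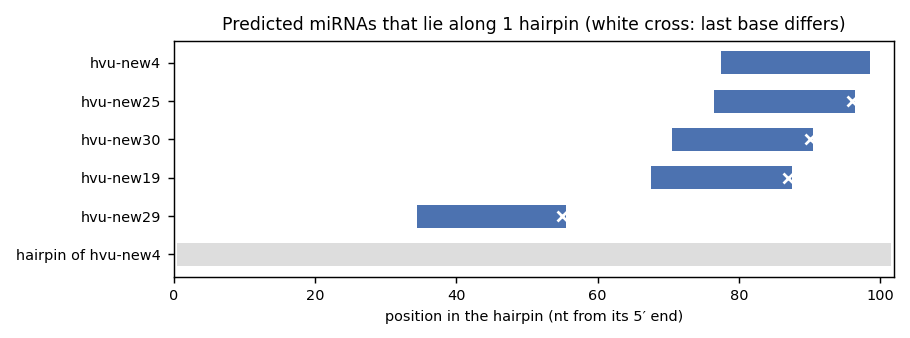
Positions (x axis, nt from the 5′ end) of 5 predicted miRNAs along the 101 nt hairpin of hvu-new4, each drawn as a bar on its own line. White crosses mark the last base of hvu-new29, hvu-new19, hvu-new30 and hvu-new25, the only base that differs from the hairpin. The last 4 bars overlap between positions 68 and 98.

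Loci of different members also lay close together at 3 places of the chromosomes, counted as runs of loci that start at most 150 kb apart, a distance chosen after the loci were seen. On 5H, between positions 59533878 and 59766658, there were 6 loci of hvu-new4, hvu-new7, hvu-new13, hvu-new19 and hvu-new23 in 233 kb. On 2H, between 187524553 and 187756091, there were 5 loci of hvu-new3, hvu-new17 and hvu-new30 in 232 kb. On 1H, hvu-new14 and hvu-new4 lay 9.32 kb apart from outer end to outer end. The 9 miRNAs with a locus in these 3 places held 1731 counts, 20.1% of the counts of the 53. What lies at these places was not analysed here. Whether their sequences come from miRNA precursors or from another RNA, such as rRNA, was not tested.

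A further 3 pairs overlapped at a locus or in sequence. The hvu-new8 and hvu-new64 sequences came from the same place on 5H, shifted by 1 base (starts 96994207 and 96994208), and shared 20 bases.
hvu-new8: aTGGAGGTagacggaaacgga
hvu-new64: tGGAGGTAgacggaaacggag
The hvu-new55 and hvu-new23 sequences shared 17 bases, and hvu-new23 fitted the hvu-new55 hairpin except for its last base (T22C).
hvu-new23: cTGTTGAGcttgactctagtct
hvu-new55: tGAGCTTGactctagtccgacc
The hvu-new57 sequence lay on the minus strand of 6H (95336467 to 95336488), inside the hairpin span from which hvu-new73, assigned to miR397 by the study, was predicted on the plus strand.
hvu-new57: tGCAGCGCcggtgaaccgctcc
In counts, hvu-new57 was at 0 in the 3 Rc libraries, had 0, 4 and 2 counts in Lv and 0, 7 and 2 in Hv, while hvu-new73 had 0, 18 and 31 in Rc and 0 in all 6 stored libraries. No library listed both strands, but with so few counts this does not show that the strands exclude each other.

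Detection was sparse. Of the 477 values of the 53 miRNAs in 9 libraries, 278 (58.3%) were above 0, and the smallest of these was 2, which occurred 35 times. Known miRNAs of the same table had 86 counts of 1, so a 0 of a predicted miRNA cannot be read as the absence of any read. Of the 53, 7 were listed in all 9 libraries, 6 in 8, 4 in 7, 5 in 6, 4 in 5, 12 in 4, 12 in 3, 2 in 2 and 1 in 1. The number listed per library was 34, 25 and 42 (Rc), 21, 26 and 32 (Lv) and 27, 35 and 36 (Hv), with means of 33.7 ± 8.5, 26.3 ± 5.51 and 32.7 ± 4.93 (SD, n = 3). The groups overlapped, and Lv replicate 1, which had the lowest total count of the 9 libraries, had the fewest listed, and Rc replicate 3, which had the highest, had the most. Between these the order did not follow the total count. Hv replicate 1, with 4179 counts, listed 27, and Lv replicate 2, with 10353, listed 26.

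By group, 35 of the 53 were listed in at least 1 library of each group. Listed in Rc alone were hvu-new8, with 0, 4 and 5 counts, hvu-new27, with 0, 0 and 2, hvu-new32, with 2, 0 and 2, and hvu-new65, with 2 in each Rc library. Of the remaining 14, 7 were listed in Rc and Hv, 4 in Rc and Lv and 3 in both stored groups, and none was listed in Lv alone or in Hv alone. With at least 5 counts required in a library, 23 were listed in all 3 groups, 5 in Rc alone, 3 in Hv alone and 2 in Lv alone, and 11 met it in no library. The miRNAs found in 1 group thus depended on the limit, and hvu-new8 was the only one in Rc alone under both.

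**Figure D3:**
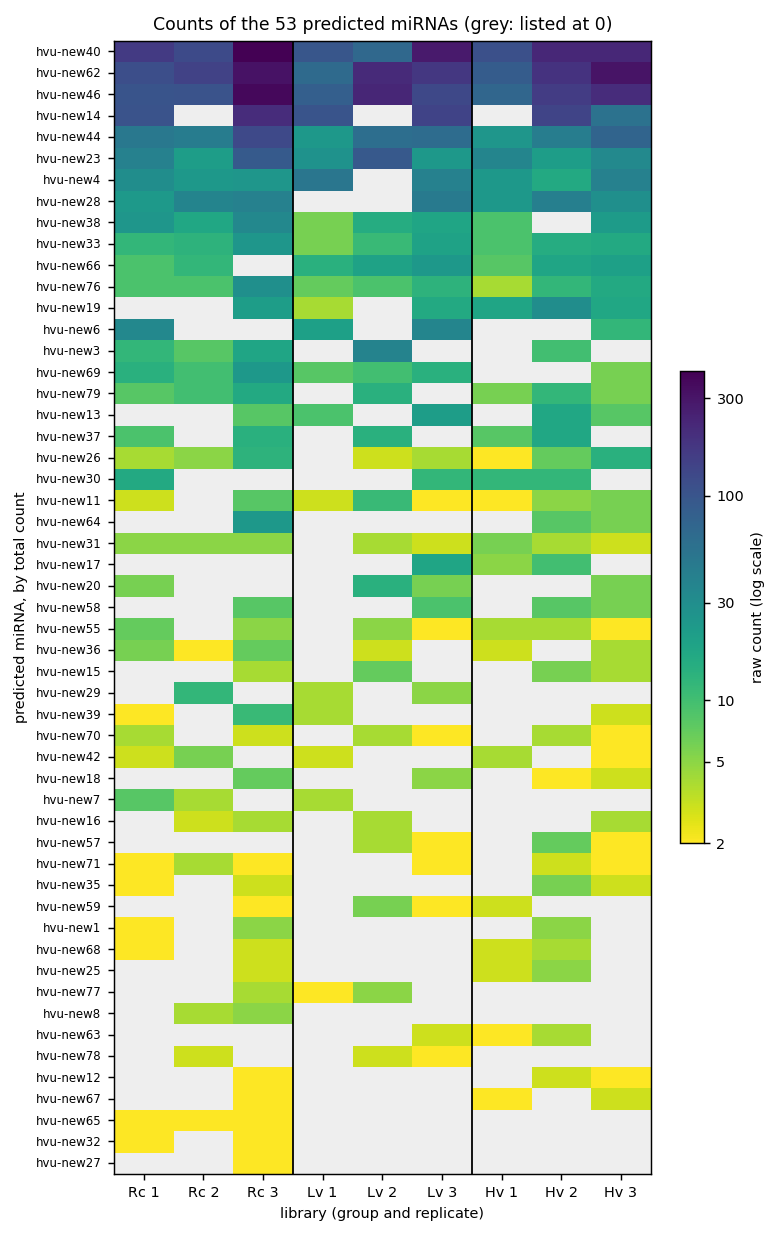
Raw counts (colour, log scale) of the 53 predicted miRNAs (y axis, ordered by total) in each of the 9 libraries (x axis), with grey for a listing at 0. The 7 miRNAs listed in all 9 libraries are among the 12 with the highest totals, and hvu-new14, hvu-new4 and hvu-new28 have grey cells among high counts.

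A few miRNAs held most of the counts. The median total over the 9 libraries was 31, 8 had a total under 10 and 14 had 100 or more. The 5 highest, hvu-new40, hvu-new62, hvu-new46, hvu-new14 and hvu-new44, held 69.6% of the counts of the 53, and the 10 highest held 82.8%. Levels are given in RPM, the counts scaled to the mapped reads of each library, with the raw counts. Where reads of a miRNA with several loci were counted at each, its total is a multiple of its reads. Of the 2 miRNAs with 3 loci, hvu-new23 had multiples of 3 in all 9 libraries and hvu-new4 in 5 of the 8 that list it, and of the 46 values above 0 of the 9 miRNAs with 2 loci, 43 (93.5%) were even, against 58.1% of the 215 values of those with 1 locus. Divided by the number of listed loci, which can be fewer than the places matched, hvu-new40 moved from the highest total to the third and hvu-new23 from the sixth to rank 8.

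The highest total belonged to hvu-new40, the sequence that matches the miR396 member hvu-new69 except for 1 base in each. It had 164, 124 and 406 counts (Rc), 98, 67 and 276 (Lv) and 112, 226 and 227 (Hv), which is 709 ± 207, 493 ± 258 and 628 ± 141 RPM (SD, n = 3). The groups overlapped, and Lv replicate 2 was the lowest library. The miR396 member itself, hvu-new69, stood far lower, with 14, 10 and 24 counts (Rc), 8, 10 and 14 (Lv) and 0, 0 and 6 (Hv). Both have 2 listed loci, and hvu-new40 had from 6.7 to 37.8 times the counts of hvu-new69 in the 7 libraries that list both. The hvu-new40 sequence matched the genome at 4 places and hvu-new69 at 2, and counts were not scaled to these matches.

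The hvu-new62 sequence had 114, 142 and 312 counts (Rc), 65, 216 and 172 (Lv) and 86, 188 and 306 (Hv). Its level was 593 ± 118 RPM (Rc), 494 ± 153 (Lv) and 601 ± 146 (Hv) (SD, n = 3), so the groups overlapped. Of the 53 it had the highest total per locus, 1601.

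Both members with the miR166 seed were listed in every library. The hvu-new46 sequence had 103, 105 and 365 counts (Rc), 82, 228 and 128 (Lv) and 70, 159 and 205 (Hv), at 566 ± 231, 501 ± 189 and 462 ± 101 RPM (SD, n = 3). The hvu-new44 sequence had 48, 44 and 126 counts (Rc), 24, 60 and 62 (Lv) and 25, 43 and 74 (Hv), at 224 ± 56.1, 161 ± 23.4 and 150 ± 22.8 RPM. In RPM the hvu-new44 levels of Rc, from 183 to 288, and of the stored libraries, from 126 to 185, overlapped by a narrow margin. In CPM scaled with TMM they were apart by a margin just as narrow, with 5934 to 7196 in Rc and 4287 to 5920 in the stored libraries. How many of all miRNAs were apart on that scale was not counted. In each library hvu-new46 had from 2.06 to 3.8 times the counts of hvu-new44. Per locus, hvu-new46 came to between 26.4% and 44.1% of hvu-new45 and hvu-new44 to between 10.2% and 15.1%.

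Other abundant members shared no stretch of 12 bases with another predicted miRNA, and their sequences are shown for the counts that follow.
hvu-new14: cCCATGTCgcacggattcga
hvu-new28: gCCGACCTagctcagtggta
hvu-new38: tCAGACTTcgctgggacatc
hvu-new33: tAATAAGCatgtcttcagatg
hvu-new66: tTAAATTTctccatagcatca
hvu-new76: tTGGCATTctgtccacctcc
Each had 1 listed locus, on the plus strand at chr1H:139146224-139146243 for hvu-new14, chr4H:614211929-614211948 for hvu-new28, chr6H:412739286-412739305 for hvu-new38, chr2H:9340577-9340597 for hvu-new33 and chr6H:438338712-438338731 for hvu-new76. The hvu-new66 locus, chr3H:638444090-638444110, is on the minus strand. Matches to the genome were more than the listed locus for hvu-new28 (7 places), hvu-new33 (3) and hvu-new76 (2). The listed hvu-new28 hairpin did not contain the whole mature sequence, and no star was listed for it. Which RNA hvu-new28 comes from was not tested. Of the 6 shown, hvu-new14 was at 104, 0 and 208 counts (Rc), 102, 0 and 139 (Lv) and 0, 136 and 55 (Hv). In each group 1 library was thus at 0 beside libraries with 55 or more. At the rate of the other 6 libraries, 380 RPM, the libraries at 0 (Rc replicate 2, Lv replicate 2 and Hv replicate 1) would have held 91.4, 123 and 75.1 counts. Among the 14 miRNAs with a total of 100 or more, 7 were at 0 in at least 1 library. For hvu-new28 there were 23, 37 and 39 counts (Rc), 0, 0 and 46 (Lv) and 24, 41 and 29 (Hv). In Lv replicates 1 and 2 the rate of the other libraries would have given 18.6 and 34.9.

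The hvu-new38 sequence had 25, 17 and 34 counts (Rc), 6, 15 and 18 (Lv) and 9, 0 and 22 (Hv). Its level was 84.2 ± 17.7 RPM in Rc (SD, n = 3) and 37.3 ± 19.1 in the stored libraries (SD, n = 6), and the 3 Rc libraries, from 70.7 to 104 RPM, lay above all 6 stored ones, of which the highest was 51.2. CPM scaled with TMM kept this order by a narrow margin, with 1942 as the lowest Rc value and 1889 as the highest stored one. Its hairpin of 101 nt had 3 listed star sequences and a minimum free energy of -83.5 kcal/mol.

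The remaining members listed in all libraries were hvu-new33, hvu-new76 and hvu-new23. There were 12, 13 and 25 counts of hvu-new33 (Rc), 6, 11 and 19 (Lv) and 9, 15 and 16 (Hv), at 53.7 ± 3.53, 39 ± 8.29 and 45 ± 7.59 RPM (SD, n = 3). For hvu-new76 there were 9, 9 and 29, then 7, 9 and 13, then 4, 12 and 16 counts, at 47 ± 16.6, 33.8 ± 6.33 and 33.1 ± 11.4 RPM. The 3-locus hvu-new23 had 39, 21 and 90 counts (Rc), 27, 93 and 24 (Lv) and 36, 21 and 33 (Hv), at 152 ± 59.8, 168 ± 113 and 111 ± 61.9 RPM. In all 3 the groups overlapped. In 8 libraries, hvu-new66 was listed with 9, 12 and 0 counts (Rc), 14, 19 and 24 (Lv) and 8, 18 and 20 (Hv). Its only 0 was in Rc replicate 3, the library with the highest total count.

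**Figure D4:**
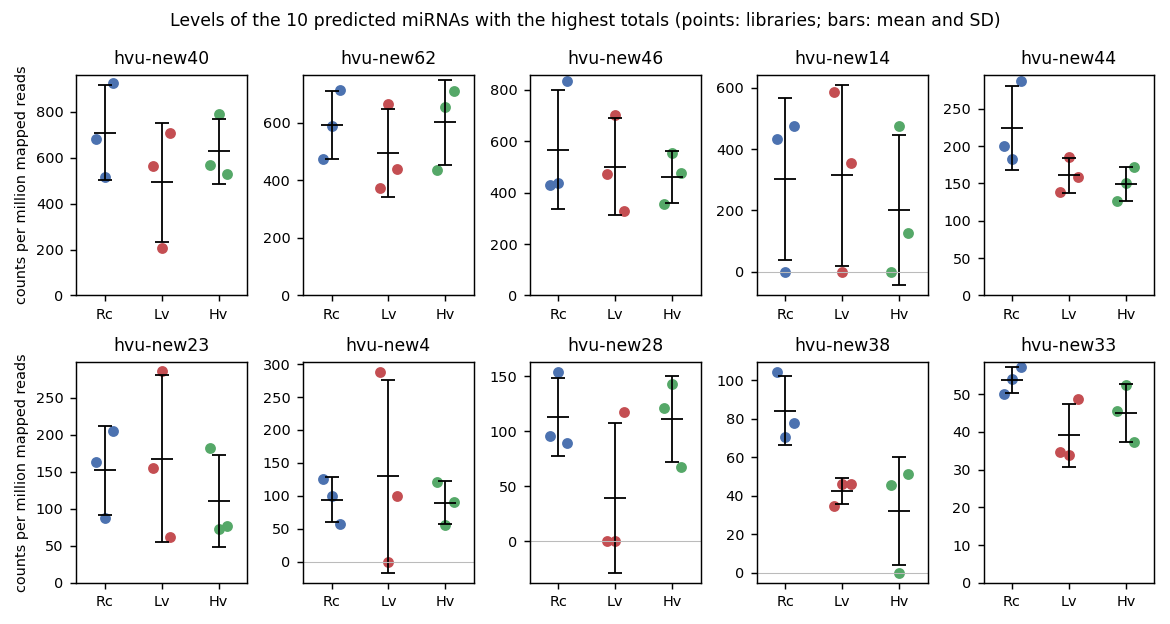
Levels in RPM (y axis, from 0 unless an SD bar reaches below it) of the 10 predicted miRNAs with the highest totals, by group (x axis). Points are libraries and bars are mean and SD (n = 3). For hvu-new38 the 3 Rc points lie above all 6 stored points, and hvu-new14 has 1 library at 0 in each group.

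The 5 sequences along the hvu-new4 hairpin were at 0 together in 1 library. Summed, hvu-new4, hvu-new19, hvu-new25, hvu-new29 and hvu-new30 had 46, 36 and 49 counts (Rc), 58, 0 and 72 (Lv) and 57, 63 and 56 (Hv). Alone, hvu-new4 had 30, 24 and 25 counts (Rc), 50, 0 and 39 (Lv) and 24, 16 and 39 (Hv), with 94 ± 34.4, 129 ± 146 and 89.3 ± 32.8 RPM (SD, n = 3). There were 0, 0 and 21 counts of hvu-new19 (Rc), 4, 0 and 16 (Lv) and 18, 30 and 17 (Hv), and 16, 0 and 0 of hvu-new30 (Rc), 0, 0 and 12 (Lv) and 12, 12 and 0 (Hv). The hvu-new29 sequence had 12 counts in Rc replicate 2, 4 in Lv replicate 1 and 5 in Lv replicate 3, and hvu-new25 had 3 in Rc replicate 3 and 3 and 5 in Hv replicates 1 and 2. The same Lv library was also at 0 for hvu-new14 and hvu-new28 but had the highest count of the 9 for hvu-new23 (93), hvu-new3 (38) and hvu-new20 (14).

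In the other related sets the counts were low. The miR171 member hvu-new71 had 2, 4 and 2 counts (Rc), 0, 0 and 2 (Lv) and 0, 3 and 2 (Hv), and hvu-new36 had 6, 2 and 7, then 0, 3 and 0, then 3, 0 and 4. Both were listed in every Rc library and in 1 Lv and 2 Hv libraries. Of the seed-sharing trio, hvu-new79 had 8, 10 and 16 counts (Rc), 0, 14 and 0 (Lv) and 6, 12 and 6 (Hv). There were 4, 2 and 5 counts of hvu-new77 in Rc replicate 3 and in Lv replicates 1 and 2, and 3, 3 and 2 of hvu-new78 in Rc replicate 2 and in Lv replicates 2 and 3. Neither was listed in Hv. Of the pair at 1 place on 5H, hvu-new64 had 24 counts in Rc replicate 3 and 8 and 6 in Hv replicates 2 and 3, and neither it nor hvu-new8 was listed in Lv. For hvu-new55 there were 7, 0 and 5 counts (Rc), 0, 5 and 2 (Lv) and 4, 4 and 2 (Hv). The hvu-new15 sequence, which shares 13 bases with the predicted miRNA hvu-new2, had 4 counts in Rc replicate 3, 7 in Lv replicate 2 and 6 and 4 in Hv replicates 2 and 3.

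Stored seeds (Lv and Hv) were compared with regenerated seeds to ask which of these miRNAs differed after long storage. With edgeR's quasi-likelihood test, 0 of the 45 members tested had an adjusted p under 0.05, as had 0 (0%) of all 99 miRNAs tested. DESeq2 called 0 of the 45 and 3 of all 99. Unadjusted p under 0.05 was reached by 2 of the 45, against 9 of all 99 (9.09%), and the groups did not overlap in RPM for 1 of the 45, hvu-new38, against 6 of 99 (6.06%). Fitted log2 fold changes of stored over Rc were above 0 for 24 and below 0 for 21, with a median of 0.11 beside -0.02 over all 99. With mapped reads in place of TMM as the scale, the log2 values of all miRNAs fell by 0.33 at the median, and 15 were above 0 and 30 below.

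The smallest p belonged to hvu-new57, at 0 in Rc as given above, with an unadjusted p of 0.0259 (adjusted p = 0.367, edgeR). Next came hvu-new17, also at 0 in Rc, with 18 counts in Lv replicate 3 and 5 and 10 in Hv replicates 1 and 2. Its edgeR adjusted p was 0.497. Their fitted values depend on the prior count and give no fold. The third to the fifth were hvu-new13, hvu-new19 and hvu-new66. For hvu-new13, with 8 counts in Rc replicate 3, 9 and 21 in Lv replicates 1 and 3 and 17 and 8 in Hv replicates 2 and 3, the log2 fold change was 2.51 ± 1.57 (SE). It was 2.00 ± 1.40 for hvu-new19 and 1.27 ± 0.90 for hvu-new66, with adjusted p of 0.690, 0.797 and 0.799. For hvu-new38, in which the groups did not overlap, the fit gave -0.78 ± 0.84 with an adjusted p of 0.871 and a 95% interval from -2.66 to 1.10.

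For the members listed in all 9 libraries the intervals were narrower. The log2 fold change of stored over Rc was 0.20 for hvu-new62, with a 95% interval from -0.24 to 0.65, and -0.17 for hvu-new44, from -0.66 to 0.31. It was 0.11 for hvu-new46, from -0.42 to 0.64, and 0.03 for hvu-new40, from -0.77 to 0.83. For hvu-new33 it was -0.01, from -0.84 to 0.81, for hvu-new76 -0.15, from -1.06 to 0.76, and for hvu-new23 0.27, from -0.94 to 1.48. Every one of these 7 intervals included 0, and for hvu-new62, hvu-new44 and hvu-new46 they reached no further than 0.66 on the log2 scale in either direction. Among the 43 members with a standard error, the median of it was 1.52, so that for most of them changes of a few-fold were not detectable in these libraries. It was 1.60 for hvu-new14, with 744 counts but 3 libraries at 0, and 0.37 for hvu-new33, with 126 counts and none at 0. Directions of hvu-new40, hvu-new46, hvu-new62 and hvu-new23 turned when mapped reads set the scale.

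Lv and Hv were compared to ask which miRNAs went with the viability of seeds stored for the same time. None of the 45 had an adjusted p under 0.05 with edgeR (0 of 99, 0%) or with DESeq2. Unadjusted p under 0.05 was reached by 2 of the 45, hvu-new69 and hvu-new35, against 5 of 99 (5.05%), and Lv and Hv did not overlap in RPM for 1 of the 45, hvu-new69, again against 5 of 99 (5.05%). Fitted log2 fold changes of Lv over Hv were above 0 for 22 and below 0 for 23, with a median of -0.15 beside -0.01 over all 99.

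The miR396 member hvu-new69 stood at 37.6 ± 7.8 RPM in Lv, 4.65 ± 8.06 in Hv and 51.6 ± 8.85 in Rc (SD, n = 3). All Lv libraries, from 30.8 to 46.1 RPM, lay above all Hv libraries, of which the highest was 14. These levels rest on 8, 10 and 14 counts in Lv and 0, 0 and 6 in Hv. All its counts were even at 2 listed loci, so the reads may be fewer. With counts divided by the number of loci, the edgeR adjusted p was 0.782. The fitted log2 fold change of Lv over Hv was 2.80 ± 1.12 (SE), with a 95% interval from 0.26 to 5.35 and an adjusted p of 0.670 (edgeR, unadjusted p = 0.0313). Without Hv replicate 3, the only Hv library that lists it, the adjusted p was 0.0412, and over the 16 alternatives it ran from there to 1. Hv replicate 3 was sequenced in the run of the Lv libraries, and both Hv libraries of run 1 were at 0. Rc replicates 2 and 3, also of run 1, had 41.6 and 54.8 RPM. With the run as a covariate the log2 fold change was 1.5 and the adjusted p 0.903 (edgeR). In that fit 0 of the 44 members tested had an unadjusted p under 0.05, and how many of all 97 miRNAs had was not counted. The fit compares Lv with Hv within a run through Hv replicate 3 alone, so it cannot tell run from viability. The cause was not tested.

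The other 4 of the 5 smallest p were at 0 in 1 of both groups. Of them, hvu-new35 was listed with 2, 0 and 3 counts (Rc), 0 (Lv) and 0, 6 and 3 (Hv). Like it, hvu-new68, with 2, 0 and 3 counts in Rc and 3, 4 and 0 in Hv, and hvu-new25 were at 0 in Lv, while hvu-new77 was at 0 in Hv. The edgeR adjusted p was 0.670 for each of these 4. In hvu-new28, which was listed in 1 Lv library and in all Hv libraries, the log2 fold change was -1.34 ± 1.41 (SE) with an adjusted p of 0.985. Leaving out Lv replicate 3, the only Lv library with hvu-new28, left Lv at 0 and gave an adjusted p of 0.0140 (edgeR). Among the 16 alternatives this was the smallest and the only one under the threshold. That fit drops the Lv library that goes against the difference, so no conclusion is drawn from it.

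Of the members listed in all 9 libraries, hvu-new62 had a log2 fold change of Lv over Hv of -0.24, with a 95% interval from -0.77 to 0.30. The value was 0.14 for hvu-new44, from -0.47 to 0.76, 0.16 for hvu-new46, from -0.49 to 0.81, and -0.26 for hvu-new40, from -1.23 to 0.71. It was -0.15 for hvu-new33, from -1.20 to 0.90, 0.11 for hvu-new76, from -1.06 to 1.27, and 0.50 for hvu-new23, from -0.96 to 1.95. All 7 intervals included 0.

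**Figure D5:**
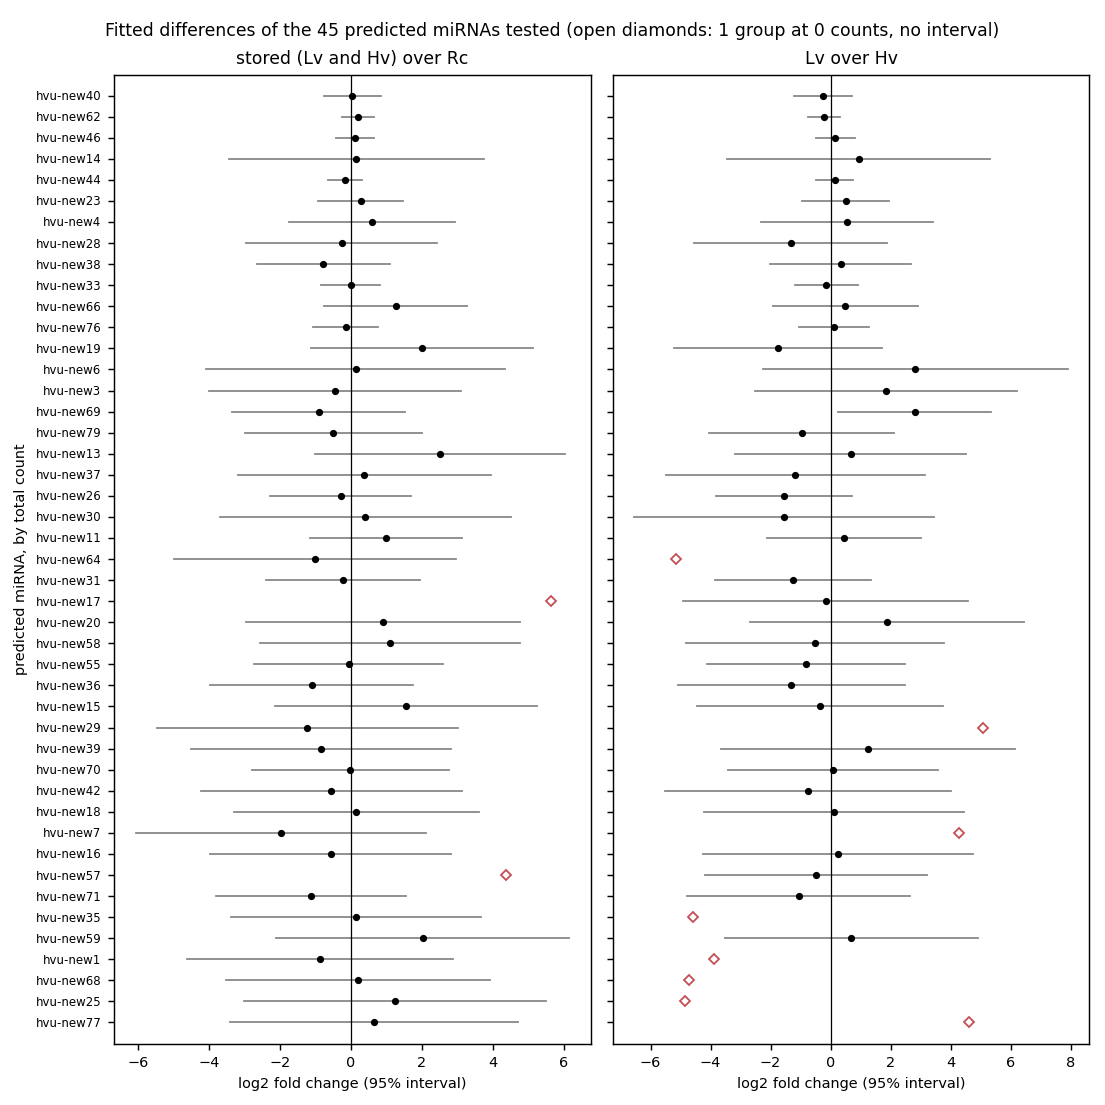
Fitted log2 fold changes (x axis) of the 45 predicted miRNAs tested (y axis, ordered by total count), for stored seeds over Rc (left) and Lv over Hv (right). Points are estimates with 95% intervals from the edgeR fit, and open diamonds are miRNAs at 0 in 1 of the groups, which have no interval. Only the interval of hvu-new69 for Lv over Hv, from 0.26 to 5.35, leaves out 0.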

How the data were processed

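Small RNA libraries of barley embryo with scutellum were sequenced, trimmed, filtered for tRNA and rRNA matches and mapped by the authors to the IBSC_v2 assembly. Known miRNAs were counted with miRProf and others were predicted with miRCat. Whole-number raw counts were deposited by the authors. The deposited normalized scores (whole numbers that the authors made from the counts with DESeq2 size factors), and the fold changes, p-values and adjusted p-values of the authors' own comparisons, were not used.

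From the counts, RPM were computed with the mapped reads the study gives. Differences were tested with edgeR 4.0.16 in R 4.3.3 (TMM, quasi-likelihood test) on the 99 miRNAs whose 9 counts sum to 10 or more, with Benjamini-Hochberg adjustment over all 99 and a threshold of 0.05. Of the 53 predicted miRNAs, 45 passed the filter, and the other 8 were described by counts only. Standard errors were derived from the edgeR fit and are given only if neither group was at 0. Alternatives were DESeq2 1.42.0, other scales, filters and limits, counts per locus, a replicate block, the run as a covariate and leaving out each library. Sequences, loci and stars were taken from the study's hairpin table, and hairpins were folded with RNAfold 2.7.2. The miRNAs named are the 10 highest totals, those listed in all libraries or in 1 group, those with a family or relative, and the 5 smallest p of each comparison. Relatives were sought only among the predicted miRNAs and 48 known sequences of the study's target table. Members related to other families may therefore be missed. hvu-new20 was named after its values were seen. Members, lists and rules were chosen with earlier results of these data known.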

Additional observations from a re-analysis of the deposited data

Results flagged for a closer look

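The level of hvu-new38 in Hv replicate 2, 0 RPM, stood apart from the other 5 stored libraries, of which the next lowest was 34.6 RPM. It was the only one flagged by Dixon's test at 95% among 14 values tested over the 6 stored libraries (members listed, their share and sum, and the levels of the most abundant or always listed members). Chance flags about 1 in 20 groups.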

How the results depend on the processing

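The number of the 53 called was 0 in both comparisons under every alternative that kept all 9 libraries, and also with the run as a covariate, which left out Rc replicate 1. Of all miRNAs tested, stored over Rc gave 3 of 99 with DESeq2, 2 of 142 without a filter and 2 of 99 with counts per locus. The rest of these fits called 0 of all miRNAs, as did all of them for Lv over Hv. Leaving out 1 library at a time gave from 0 to 0 calls for stored over Rc and from 0 to 1 for Lv over Hv (hvu-new28 without Lv replicate 3, log2 -8.20, and hvu-new69 without Hv replicate 3, log2 6.63, each then at 0 in 1 group). Each of these was the only call among the 97 miRNAs tested in its fit. For stored over Rc, leaving out Hv replicate 1 or Hv replicate 2 called 1 of 96 and 1 of 93 miRNAs. With the replicate number as a block, 0 were called in both comparisons. The numbers did not pair the libraries, since the deviations of 9 same-numbered pairs correlated from -0.249 to 0.232 and 3 of 9 libraries correlated best with their own number. A limit of 5 counts lowered the number listed in all 3 groups from 35 to 23, and the summed level of stored over Rc seeds was 0.846 in RPM but 1.03 in CPM scaled with TMM. Of the fold changes named, 370 of the values under alternatives kept direction and side of the threshold, 31 turned and 2 passed the threshold. For stored over Rc, mapped reads as the scale gave -0.13 for hvu-new23, -0.34 for hvu-new40, -0.24 for hvu-new46 and -0.11 for hvu-new62. For hvu-new33, DESeq2 and its size factors in edgeR gave 0.031 each and the run covariate 0.17, which gave -0.12 for hvu-new46, and without a filter hvu-new40 was at -0.026. Leaving out a library gave -0.058 to 0.42 for hvu-new23, -0.12 to 0.080 for hvu-new33, -0.083 to 0.18 for hvu-new40, -0.037 to 0.32 for hvu-new46 and -0.27 to 0.017 for hvu-new76. For Lv over Hv, the run covariate gave 0.17 for hvu-new33, 0.026 for hvu-new40, -0.014 for hvu-new44 and -0.045 for hvu-new76, and leaving out a library gave -0.015 to 1.30 for hvu-new23, -0.39 to 0.025 for hvu-new33, -0.65 to 0.14 for hvu-new40, -0.083 to 0.36 for hvu-new46 and -0.066 to 0.27 for hvu-new76. The cause was not tested. Some alternatives left hvu-new57, hvu-new35, hvu-new68, hvu-new25 or hvu-new77 under the filter and gave no value.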
